A study of Homo sapiens with 8 samples.

Results

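The genes described here are 10 members of the NRF2 pathway and its antioxidant targets, NFE2L2, KEAP1, NQO1, HMOX1, GCLC, GCLM, TXNRD1, SRXN1, SLC7A11 and AKR1C1, taken by symbol from the 32803 genes of the deposited count table. All 10 were present, and all 10 passed the filter on low counts that left 16221 genes for testing. They were measured by RNA-seq of total RNA in 4 groups of 2 libraries, all of human ovarian cancer cells grown in medium without drug. The groups were resistant BRCA1-deficient cells (Olres-UWB1.289, passage 56), parental BRCA1-deficient cells (UWB1.289, passage 29), resistant BRCA1-proficient cells (Olres-UWB1.289+BRCA1, passage 45) and parental BRCA1-proficient cells (UWB1.289+BRCA1, passage 10). UWB1.289 is an ovarian carcinoma line without functional BRCA1, and UWB1.289+BRCA1 is the same line with BRCA1 put back. The resistant cells are derivatives of these lines that resist inhibitors of poly(ADP-ribose) polymerase (PARP). Each group is a single line, passage number differs between every pair of groups compared, and passage can therefore not be told apart from resistance or BRCA1 state. The labels do not say whether replicates were grown apart, and the p-values therefore cover the spread of these libraries alone, which may be technical.

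NRF2, the product of NFE2L2, is a transcription factor that switches on genes for glutathione synthesis, thioredoxin recycling and the removal of reactive chemicals. In unstressed cells KEAP1 holds NRF2 and passes it to the CUL3 ubiquitin ligase for destruction, and oxidants or electrophiles that modify KEAP1 let NRF2 build up and bind antioxidant response elements. Activity is therefore set largely at the level of NRF2 protein, which these mRNA counts do not measure. In ovarian and other carcinomas the pathway is known for its part in tolerance of oxidative stress and of several drugs.

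The libraries held 24094821 to 34394107 counts. BRCA1, the check of the labels, averaged 34.7 CPM (counts scaled to a common library total) in resistant deficient cells, 35.6 CPM in parental deficient cells, 2270.2 CPM in resistant proficient cells and 202 CPM in parental proficient cells. With resistance it was higher in proficient cells (log2 fold change 3.49 ± 0.07, edgeR BH-adjusted p = 1.06e-10) and not called in deficient cells (-0.04 ± 0.07, edgeR BH-adjusted p = 0.714). In proficient cells the level of BRCA1 can therefore not be told apart from resistance. The 10 markers of ovarian carcinoma cells, PAX8 and EPCAM among them, were each above 1 CPM in at least 1 group and summed to between 3828 and 8236 CPM per library. Of these, WT1 was at 0.219 CPM or less in 3 groups and at 8.50 CPM in resistant proficient cells. The 3 red cell markers summed to 0.0720 CPM or less, the 7 leukocyte markers to between 18.6 and 29.9 CPM and the 8 fibroblast markers to between 11.2 and 70.9 CPM. The 5 endothelial markers summed to between 3.73 and 49.96 CPM, with CDH5 at 38.1 CPM in resistant deficient, 35.4 CPM in parental deficient, 1.66 CPM in resistant proficient and 0.501 CPM in parental proficient cells. Over 1 CPM in some group were 3 of the 8 fibroblast markers (COL1A1, COL1A2 up to 51.6 CPM and THY1 up to 12.6 CPM), 3 of the 7 leukocyte markers (PTPRC up to 12.8 CPM, CD14 up to 21.3 CPM and CD68 up to 16.2 CPM) and 4 of the 5 endothelial ones. MS4A1, HBB and HBA1 were at 0 in all libraries. The part of these markers in the results was not tested.

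GCLC and GCLM, the subunits of the enzyme that limits glutathione synthesis, and TXNRD1 and SRXN1, which serve thioredoxin and peroxiredoxin recycling, fell in both resistant lines, and KEAP1 rose in both. The falls of GCLC and TXNRD1 in deficient cells were not called once the trend of each library on GC content was removed, while NFE2L2, NQO1 and SLC7A11 were then called higher in deficient cells and NQO1 in proficient cells. SLC7A11 and NFE2L2 fell in BRCA1-proficient cells and were not called in BRCA1-deficient cells, while HMOX1 and AKR1C1 fell in deficient cells and were not called in proficient cells. NQO1 was called in neither as tested. A gene was called when its Benjamini-Hochberg (BH) adjusted p in edgeR's quasi-likelihood test, taken over all 16221 genes, was under 0.05. In these bulk samples, fewer cells with an RNA and less of it per cell cannot be told apart. In deficient cells 1 of the 10 members rose and 6 fell, where 28.9% of all genes tested rose and 27.0% fell (55.8% called in either direction). In proficient cells 1 rose and 6 fell as well, where 25.9% of all genes rose and 27.8% fell (53.7% in either direction). The median log2 fold change in deficient cells was -0.27 over the members and 0.03 over all genes tested, and in proficient cells -0.58 over the members and 0.00 over all genes. The libraries of resistant and parental cells did not overlap for 9 members in the deficient background, where this held for 78.7% of all genes, and for all 10 in the proficient background, where it held for 76.4%. The test of the difference between the 2 resistance effects, proficient minus deficient, called NFE2L2, KEAP1, TXNRD1 and SLC7A11 lower and the other 6 members not at all, where 25.3% of all genes were called lower and 46.7% in either direction.

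**Figure D1:**
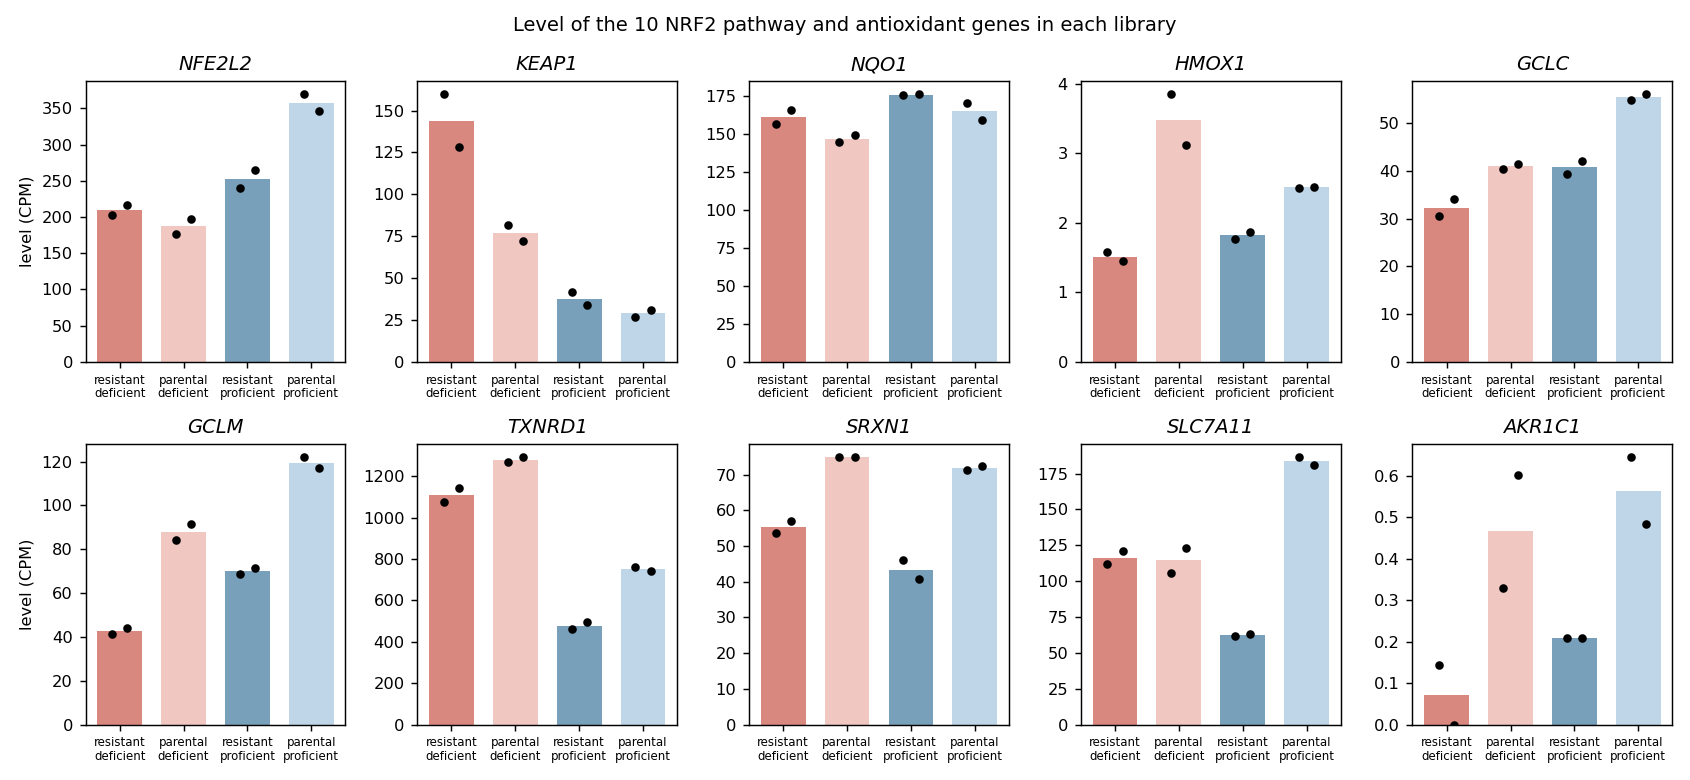
Level of each member in CPM (vertical axis, from 0) in the 8 libraries, with a point per library and a bar at the mean of the 2 libraries of a group. GCLC, GCLM and SRXN1 stand lower in the resistant than in the parental libraries of both backgrounds, KEAP1 stands higher, and SLC7A11 is lowest in resistant proficient cells at 62.7 CPM.

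The promoters are shown because the antioxidant response element is the site through which NRF2 acts and because several members moved together. RefSeq windows of GRCh38.p14, running from 250 bases before a gene's start site to 50 bases after it, were available for 8 of the 10 members, without HMOX1 and SLC7A11, and numbered 11. They were searched on both strands for the core of the element, TGACNNNGC, and for no other motif. A match was found in 4 of the 11 windows, belonging to GCLM, TXNRD1 and KEAP1, where 13.3% of the 35116 windows of the whole table held one. The members were chosen as NRF2 pathway genes, and whether the matches bear on the changes with resistance was not tested. In GCLM the match began 34 bases before the start site, in TXNRD1 99 and 8 bases before the first start site and 102 bases before the second, and in KEAP1 54 and 31 bases before one of its start sites. The windows of NFE2L2, NQO1, GCLC, SRXN1 and AKR1C1 held no match, which says only that these letters were not in these windows. The 4 windows with a match are given 5′ to 3′ with the match in capitals, followed by that of NQO1, a classical NRF2 target that was not called with resistance.
GCLM (chr1:93909381-93909680, minus strand): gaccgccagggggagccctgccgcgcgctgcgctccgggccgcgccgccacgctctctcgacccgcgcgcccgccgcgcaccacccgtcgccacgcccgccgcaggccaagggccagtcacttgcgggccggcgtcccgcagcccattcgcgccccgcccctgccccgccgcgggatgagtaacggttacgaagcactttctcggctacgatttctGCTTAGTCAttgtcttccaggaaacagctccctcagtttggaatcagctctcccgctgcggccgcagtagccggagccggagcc
TXNRD1, first window (chr12:104215529-104215828, plus strand): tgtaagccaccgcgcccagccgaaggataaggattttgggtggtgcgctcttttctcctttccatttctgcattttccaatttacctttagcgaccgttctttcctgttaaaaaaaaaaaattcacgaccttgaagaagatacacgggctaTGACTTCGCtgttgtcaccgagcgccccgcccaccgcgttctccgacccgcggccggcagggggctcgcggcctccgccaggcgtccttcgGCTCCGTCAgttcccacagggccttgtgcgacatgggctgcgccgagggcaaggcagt
TXNRD1, second window (chr12:104286782-104287081, plus strand): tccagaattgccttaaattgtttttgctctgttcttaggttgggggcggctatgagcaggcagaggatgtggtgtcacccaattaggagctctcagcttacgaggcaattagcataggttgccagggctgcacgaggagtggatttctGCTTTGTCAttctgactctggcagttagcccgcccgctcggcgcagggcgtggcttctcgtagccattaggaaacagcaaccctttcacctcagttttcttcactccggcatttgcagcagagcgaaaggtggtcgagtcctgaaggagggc
KEAP1 (chr19:10502722-10503021, minus strand): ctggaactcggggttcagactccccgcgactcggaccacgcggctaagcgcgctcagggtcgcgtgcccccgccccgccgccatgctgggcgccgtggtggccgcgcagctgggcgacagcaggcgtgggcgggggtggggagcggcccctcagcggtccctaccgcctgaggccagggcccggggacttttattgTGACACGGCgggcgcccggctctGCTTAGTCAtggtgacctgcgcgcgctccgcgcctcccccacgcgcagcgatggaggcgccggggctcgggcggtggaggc
NQO1 (chr16:69726511-69726810, minus strand): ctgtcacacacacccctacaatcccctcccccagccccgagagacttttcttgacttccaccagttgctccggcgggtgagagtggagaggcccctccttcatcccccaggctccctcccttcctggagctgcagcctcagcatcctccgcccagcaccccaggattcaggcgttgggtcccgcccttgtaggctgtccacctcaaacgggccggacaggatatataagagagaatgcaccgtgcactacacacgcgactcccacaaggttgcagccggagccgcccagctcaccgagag

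KEAP1 encodes the adaptor that marks NRF2 for destruction. Its level was 160 and 128 CPM in resistant deficient libraries, against 81.7 and 72.4 CPM in parental deficient libraries. In proficient cells it was 41.7 and 33.9 CPM in resistant libraries, against 26.9 and 31.2 CPM in parental libraries. Both resistant libraries were above both parental libraries in each background, and all 4 deficient libraries were above all 4 proficient ones. The log2 fold change with resistance was 0.90 ± 0.13 (SE, edgeR BH-adjusted p = 0.000135) in deficient and 0.38 ± 0.13 (edgeR BH-adjusted p = 0.0337) in proficient cells. The call in proficient cells was lost without parental proficient replicate 1 (log2 0.31, edgeR BH-adjusted p = 0.162) and without resistant proficient replicate 1 (0.27, edgeR BH-adjusted p = 0.181), within 6.81e-05 to 0.181 over the alternatives. The difference between the resistance effects, proficient minus deficient, was -0.52 ± 0.18 (edgeR BH-adjusted p = 0.0365), and leaving out any of 5 single libraries ended that call, with values of -0.56 to -0.29. It was also lost with RLE factors (-0.50, edgeR BH-adjusted p = 0.0509), library totals alone (-0.47, edgeR BH-adjusted p = 0.0556), the filter of 1 CPM (-0.46, edgeR BH-adjusted p = 0.0785) and the GC trend removed (0.02, edgeR BH-adjusted p = 0.854), and held in 6 of 16 alternatives, within 0.00110 to 0.872.

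NFE2L2 encodes NRF2 itself. Its level was 202 and 216 CPM in resistant deficient libraries, against 176 and 198 CPM in parental deficient libraries, a log2 fold change of 0.16 ± 0.08 that was not called (edgeR BH-adjusted p = 0.0986). In resistant proficient libraries it was 240 and 264 CPM, against 369 and 346 CPM in parental proficient libraries. There it fell (-0.50 ± 0.08, edgeR BH-adjusted p = 0.000220), and all 4 proficient libraries stood above the 4 deficient ones. The difference between the resistance effects, proficient minus deficient, was -0.66 ± 0.11 (edgeR BH-adjusted p = 0.000551). Of the stretches of 50 bases in NFE2L2 transcripts, 8.75% also occur in AC019080.1, an overlapping gene on the same strand in GENCODE 29, so some of its reads may not have been unique to it.

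Glutathione is made from glutamate, cysteine and glycine, and the rate-limiting enzyme joins a catalytic subunit, GCLC, to a modifier subunit, GCLM. GCLM, on chromosome 1, read 41.3 and 44.2 CPM in resistant deficient libraries, against 84.3 and 91.5 CPM in parental deficient libraries. In proficient cells it read 68.6 and 71.4 CPM in resistant libraries, against 122 and 117 CPM in parental libraries. All 4 resistant libraries lay below all 4 parental ones. GCLM fell in both backgrounds, with a log2 fold change of -1.04 ± 0.08 in deficient cells (edgeR BH-adjusted p = 1.38e-06) and of -0.77 ± 0.07 in proficient cells (edgeR BH-adjusted p = 6.42e-06).

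GCLC, the catalytic subunit, read 30.5 and 34.1 CPM in resistant deficient libraries, against 40.5 and 41.4 CPM in parental deficient libraries. In proficient cells the values were 39.4 and 42.1 CPM in resistant and 54.9 and 56.1 CPM in parental libraries. Within each background the groups did not overlap, but the resistant proficient libraries spanned the range of the parental deficient ones. GCLC fell in both backgrounds as tested, with a log2 fold change of -0.34 ± 0.09 in deficient cells (edgeR BH-adjusted p = 0.00701) and of -0.45 ± 0.09 in proficient cells (edgeR BH-adjusted p = 0.00131). With the GC trend removed, the value in deficient cells was -0.07 and was not called (edgeR BH-adjusted p = 0.461). The difference between the resistance effects as tested was -0.11 ± 0.12 (edgeR BH-adjusted p = 0.520, within 0.0220 to 0.922 over the alternatives). It was called with the GC trend removed (-0.30, edgeR BH-adjusted p = 0.0220) and turned to 0.05 without resistant deficient replicate 2 and 0.02 without resistant proficient replicate 1. That of GCLM was 0.27 ± 0.11 (edgeR BH-adjusted p = 0.0587, within 0.0139 to 1 over the alternatives), which passed without resistant deficient replicate 2 (0.39) or resistant proficient replicate 1 (0.38).

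SLC7A11 encodes the light chain of the cystine-glutamate antiporter xCT, which brings in the cystine for glutathione. It read 112 and 121 CPM in resistant deficient libraries, against 106 and 123 CPM in parental deficient libraries, and these groups overlapped. In proficient cells it read 62.1 and 63.3 CPM in resistant libraries, the lowest values of the 8, against 187 and 181 CPM in parental libraries, the highest. The log2 fold change was 0.02 ± 0.08 in deficient cells (edgeR BH-adjusted p = 0.815) and -1.55 ± 0.08 in proficient cells (edgeR BH-adjusted p = 7.47e-08), and the difference between these effects was -1.58 ± 0.11 (edgeR BH-adjusted p = 1.63e-06). SLC7A11-AS1, an antisense gene that overlaps it, held 14 to 60 counts per library beside 1522 to 5244 for SLC7A11. The heavy chain of the antiporter, SLC3A2, moved in the same direction in proficient cells, at 75.9 ± 8.12 CPM in resistant and 240.2 ± 4.77 CPM in parental cells (SD, n = 2; log2 fold change -1.66 ± 0.10, edgeR BH-adjusted p = 1.50e-07).

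TXNRD1 encodes cytosolic thioredoxin reductase, which returns thioredoxin to its reduced form with NADPH. It was the most abundant member, at 1075 and 1143 CPM in resistant deficient libraries, against 1267 and 1293 CPM in parental deficient libraries. In proficient cells it read 464 and 494 CPM in resistant and 761 and 742 CPM in parental libraries. Resistant libraries were below parental ones in each background, and every proficient library was below every deficient one. TXNRD1 fell in both backgrounds, with a log2 fold change of -0.21 ± 0.06 in deficient cells (edgeR BH-adjusted p = 0.0127) and of -0.65 ± 0.06 in proficient cells (edgeR BH-adjusted p = 5.02e-06). The proficient effect was larger, with a difference of -0.44 ± 0.09 (edgeR BH-adjusted p = 0.00152). The call in deficient cells was lost without parental deficient replicate 2 (log2 -0.22). With the GC trend removed it was lost as well, and the sign turned (0.06, edgeR BH-adjusted p = 0.250, within 0.00144 to 0.251 over the alternatives).

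SRXN1 encodes sulfiredoxin, which repairs over-oxidised peroxiredoxins. Resistant deficient libraries read 53.7 and 56.9 CPM, against 74.9 and 74.9 CPM in parental deficient libraries. Resistant proficient libraries read 46.0 and 40.7 CPM, against 71.4 and 72.4 CPM in parental proficient libraries. The 4 resistant libraries were below the 4 parental ones. SRXN1 fell in both backgrounds, with a log2 fold change of -0.44 ± 0.08 in deficient cells (edgeR BH-adjusted p = 0.000830) and of -0.73 ± 0.08 in proficient cells (edgeR BH-adjusted p = 2.03e-05), and the difference of -0.29 ± 0.11 was not called (edgeR BH-adjusted p = 0.0553, within 0.0183 to 0.363 over the alternatives) but was called with the GC trend removed (-0.28, edgeR BH-adjusted p = 0.0183). Of its stretches of 50 bases, 84.7% also belong to AL121758.1, a same-strand gene of GENCODE 29 that overlaps it, and the counts cannot tell them apart.

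NQO1 encodes a quinone reductase and is a standard readout of NRF2 activity. It read 157 and 166 CPM in resistant deficient libraries, against 145 and 149 CPM in parental deficient libraries, and 176 and 176 CPM in resistant proficient libraries, against 170 and 159 CPM in parental proficient libraries. The groups did not overlap within a background, but the log2 fold changes were 0.14 ± 0.06 in deficient cells (edgeR BH-adjusted p = 0.0928) and 0.09 ± 0.06 in proficient cells (edgeR BH-adjusted p = 0.251). Over the 8 libraries NQO1 thus ran from 145 to 176 CPM, a narrower range than that of GCLM (41.3 to 122 CPM) or SLC7A11 (62.1 to 187 CPM).

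HMOX1 encodes the inducible haem oxygenase, which breaks down haem, and it was low throughout. It held 44 and 50 counts (1.58 and 1.45 CPM) in resistant deficient libraries, against 117 and 109 counts (3.85 and 3.13 CPM) in parental deficient libraries. In proficient cells there were 51 and 45 counts (1.77 and 1.87 CPM) in resistant and 62 and 73 counts (2.50 and 2.52 CPM) in parental libraries. HMOX1 fell in deficient cells (-1.20 ± 0.23, edgeR BH-adjusted p = 0.00127), and its log2 fold change in proficient cells was -0.46 ± 0.24 (edgeR BH-adjusted p = 0.129). The difference of 0.74 ± 0.34 between these effects was not called (edgeR BH-adjusted p = 0.0957, within 0.0168 to 0.303 over the alternatives) but was called with the GC trend removed (1.07, edgeR BH-adjusted p = 0.0168).

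AKR1C1, an aldo-keto reductase of steroid and aldehyde metabolism, was near the detection limit. It held 4 and 0 counts in resistant deficient libraries, against 10 and 21 in parental deficient libraries, and 6 and 5 counts in resistant proficient libraries, against 16 and 14 in parental proficient libraries. The resistant libraries were below the parental ones in both backgrounds. The fitted log2 fold change was -2.78 ± 0.88 in deficient cells (edgeR BH-adjusted p = 0.0195) and -1.41 ± 0.73 in proficient cells (edgeR BH-adjusted p = 0.129). The deficient call was lost with DESeq2 (-2.76, adjusted p = 0.0667), without parental deficient replicate 2 (-2.29, edgeR BH-adjusted p = 0.141) and without resistant deficient replicate 2 (-1.71, edgeR BH-adjusted p = 0.128), and the value was -6.82 without resistant deficient replicate 1, within an adjusted p of 0.00470 to 0.141 over the alternatives. Of the 50-base stretches of AKR1C1, 26.8% also occur in its paralog AKR1C2, which held 1 to 14 counts per library, so its counts are uncertain.

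**Figure D2:**
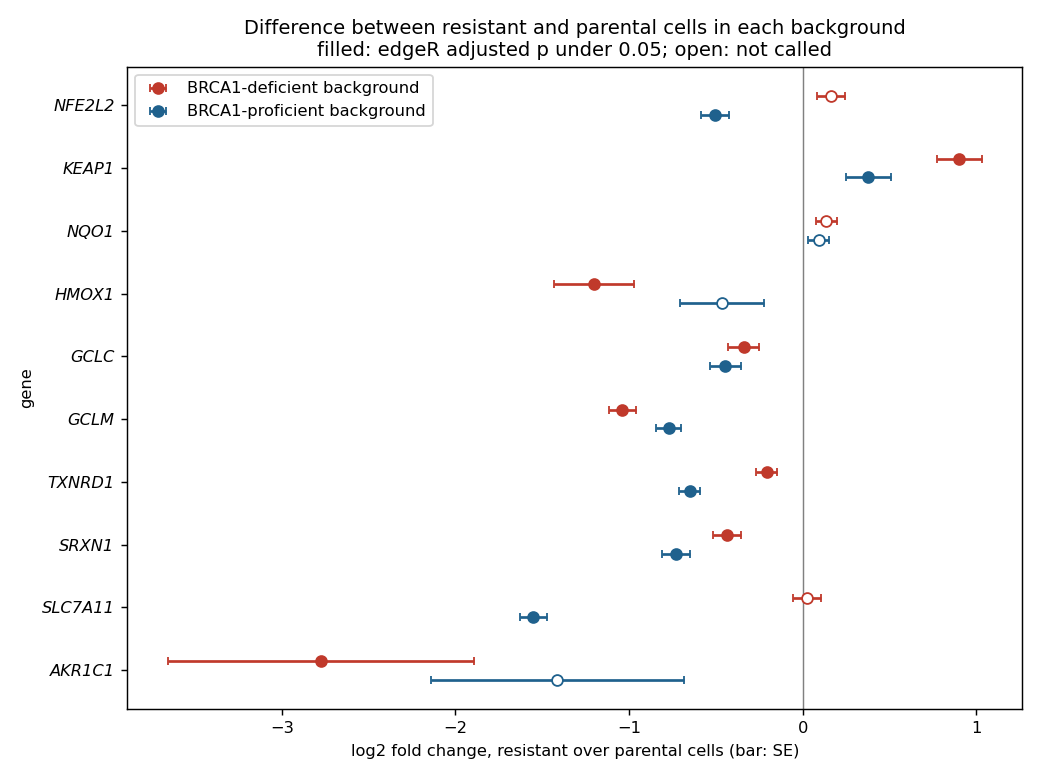
Log2 fold change of resistant over parental cells (horizontal axis) for each member, with bars of 1 SE, in the deficient (red) and proficient (blue) backgrounds; filled points passed the adjusted p and open points did not. GCLC, GCLM, TXNRD1 and SRXN1 lie left of 0 in both backgrounds, KEAP1 lies right of 0 in both, and SLC7A11 parts the backgrounds most clearly, at 0.02 in deficient and -1.55 in proficient cells.

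Fold changes followed transcript GC content to different degrees in the comparisons. Across the 15451 genes tested that had a transcript GC content, which are not independent replicates, Spearman's rho between log2 fold change and GC content was 0.46 for resistance in deficient cells and 0.08 in proficient cells. For proficient over deficient cells it was -0.45 in parental and -0.53 in resistant cells, and for the difference of resistance effects -0.31. The members ranged from 35.4% GC (SLC7A11) and 37.3% (GCLM) to 58.1% (HMOX1) and 60.3% (KEAP1). When each library's trend on GC content was removed, KEAP1 still rose in deficient cells but by 0.33 (edgeR BH-adjusted p = 0.000147, within 5.35e-22 to 0.00363 over the alternatives), and GCLM still fell but by 0.64 (edgeR BH-adjusted p = 5.75e-08, within 6.92e-31 to 0.000189). The deficient values of GCLC (-0.07, edgeR BH-adjusted p = 0.461, within 0.00230 to 0.464) and TXNRD1 (0.06, edgeR BH-adjusted p = 0.250, within 0.00144 to 0.251) were then no longer called. SLC7A11 (0.49, edgeR BH-adjusted p = 1.12e-06), NFE2L2 (0.42, edgeR BH-adjusted p = 6.74e-07) and NQO1 (0.39, edgeR BH-adjusted p = 3.00e-06) were then called higher in deficient cells, where their adjusted p had upper ends of 1, 0.528 and 0.502 over the alternatives. SRXN1 (-0.50), HMOX1 (-1.57) and AKR1C1 (-2.51) still fell. In proficient cells removal of the trend changed 1 member's call, that of NQO1 (0.18, edgeR BH-adjusted p = 0.00723, within 0.00615 to 0.722). The falls of GCLM (-0.64), TXNRD1 (-0.57), SRXN1 (-0.78), SLC7A11 (-1.34), GCLC (-0.37) and NFE2L2 (-0.42) passed there too.

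**Figure D3:**
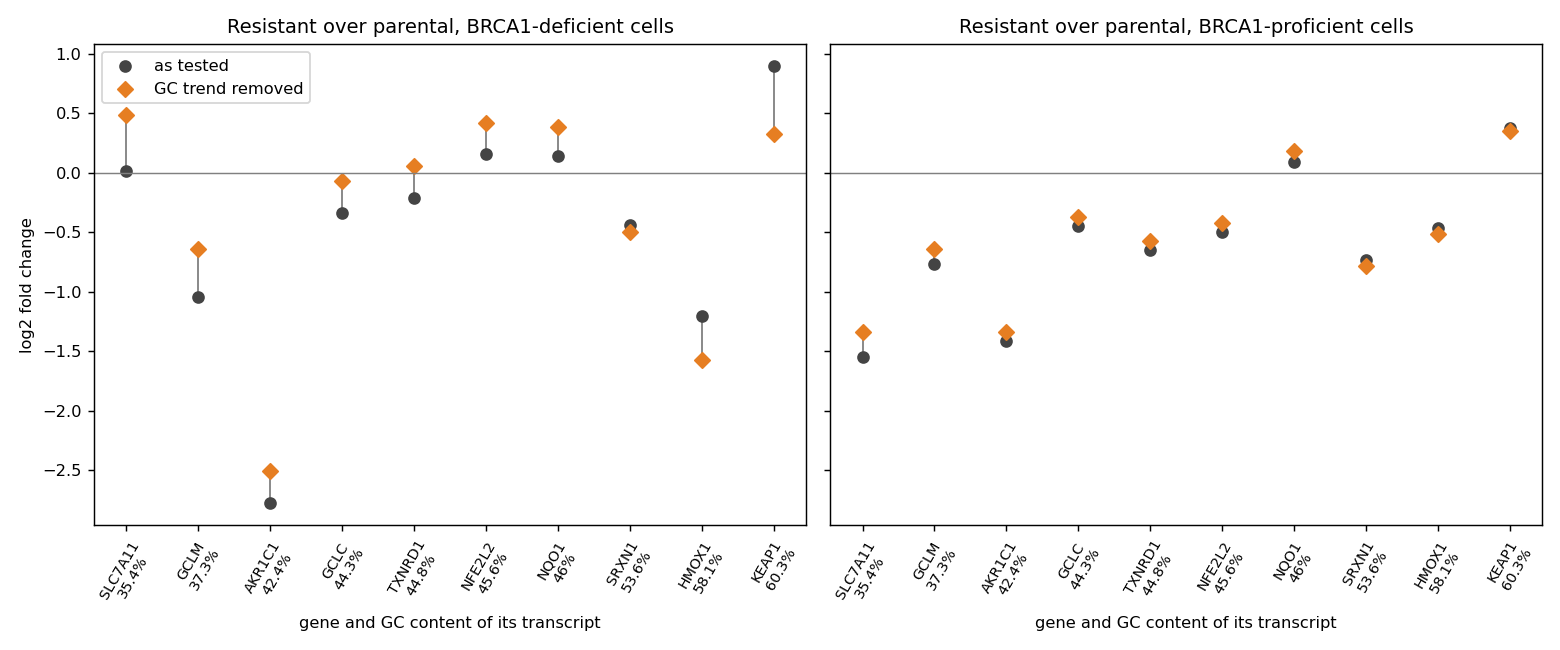
Log2 fold change of resistant over parental cells (vertical axis) for each member, ordered by the GC content of its transcript from 35.4% to 60.3%, as tested (circles) and with each library's GC trend removed (diamonds). In deficient cells the low-GC members shift up and KEAP1 reads 0.33 with the trend removed and 0.90 as tested, while in proficient cells the symbols of each member stay close together.

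The comparison of BRCA1-proficient with BRCA1-deficient cells asked how the members differ when BRCA1 is restored. These comparisons use the same libraries as those of resistance and are not independent of them. In parental cells NFE2L2 was higher in proficient cells (log2 fold change 0.93 ± 0.08, edgeR BH-adjusted p = 1.79e-06) and KEAP1 was lower (-1.40 ± 0.13, edgeR BH-adjusted p = 4.66e-06). NFE2L2 averaged 358 ± 16.7 CPM in parental proficient and 187 ± 15 CPM in parental deficient cells, and KEAP1 averaged 29.1 ± 3.03 CPM in parental proficient and 77.0 ± 6.58 CPM in parental deficient cells (SD, n = 2 each). TXNRD1 was lower too (-0.77 ± 0.06, edgeR BH-adjusted p = 1.20e-06). These 3 calls held with the GC trend removed, at 0.65 for NFE2L2, -0.89 for KEAP1 and -1.09 for TXNRD1. Of the 10 members, 5 were higher and 2 lower in proficient cells, where 32.3% of all genes were higher and 30.1% lower (62.4% in either direction). The libraries did not overlap for 9 of the 10, against 83.0% of all genes. SLC7A11 (0.68 ± 0.08, edgeR BH-adjusted p = 2.32e-05), GCLM (0.44 ± 0.07, edgeR BH-adjusted p = 0.000304) and GCLC (0.44 ± 0.09, edgeR BH-adjusted p = 0.00113) were the other clear rises, but with the GC trend removed they read 0.14, -0.09 and 0.10 and were not called (edgeR BH-adjusted p of 0.0521, 0.237 and 0.244, the first 2 the highest over their alternatives and the third within 8.13e-05 to 0.251). NQO1 (0.17 ± 0.06, edgeR BH-adjusted p = 0.0403) passed in 2 of its 17 alternatives, within 0.0440 to 0.398, lost its call without any of 7 of the 8 libraries and turned to -0.10 with the GC trend removed.

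In resistant cells KEAP1 averaged 37.8 ± 5.50 CPM in resistant proficient and 144 ± 22.3 CPM in resistant deficient cells (log2 fold change -1.93 ± 0.13, edgeR BH-adjusted p = 1.93e-07). TXNRD1 averaged 479 ± 21.6 CPM in proficient and 1109 ± 47.9 CPM in deficient cells (-1.21 ± 0.06, edgeR BH-adjusted p = 1.92e-08), and SLC7A11 averaged 62.7 ± 0.862 CPM in proficient and 116 ± 6.16 CPM in deficient cells (-0.89 ± 0.08, edgeR BH-adjusted p = 1.88e-06; SD, n = 2 each). SRXN1 was lower too (-0.35 ± 0.08, edgeR BH-adjusted p = 0.00228). With the GC trend removed KEAP1 read -0.86, TXNRD1 -1.72, SLC7A11 -1.69 and SRXN1 -0.23, and all 4 were still called. Of the 10 members, 3 were higher and 4 lower in resistant proficient cells, where 36.3% of all genes were higher and 37.5% lower (73.8% in either direction). The libraries did not overlap for any of the 10 members, where this held for 86.5% of all genes. The 3 higher ones, GCLM (0.71 ± 0.08, edgeR BH-adjusted p = 6.50e-06), GCLC (0.33 ± 0.09, edgeR BH-adjusted p = 0.00550) and NFE2L2 (0.27 ± 0.08, edgeR BH-adjusted p = 0.00811), turned to -0.09, -0.20 and -0.19 with the GC trend removed, and GCLC and NFE2L2 were then called lower (edgeR BH-adjusted p of 0.0245 and 0.00307, within 0.00169 to 0.0333 and 0.000250 to 0.0390 over their alternatives). HMOX1 (1.0) and NQO1 (-0.31) were then called (edgeR BH-adjusted p of 0.00247 and 2.69e-05, within 0.00247 to 0.593 and 1.69e-05 to 0.198 over their alternatives). The median over all genes was -0.19 with the GC trend removed and -0.02 as tested. As tested, HMOX1 (0.27 ± 0.25, edgeR BH-adjusted p = 0.355), NQO1 (0.12 ± 0.06, edgeR BH-adjusted p = 0.103) and AKR1C1 (1.62 ± 1.03, edgeR BH-adjusted p = 0.178) were not called. A call appeared for NQO1 without resistant deficient replicate 2 (0.20, edgeR BH-adjusted p = 0.0346) and for AKR1C1 without resistant deficient replicate 1 (5.66, edgeR BH-adjusted p = 0.0225, within 0.0225 to 0.646 over the alternatives).

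Across the 4 groups the members fell into several orders. The parental proficient group was highest for NFE2L2, GCLC, GCLM, SLC7A11 and, near the detection limit, AKR1C1. The parental deficient group was highest for TXNRD1, SRXN1 and HMOX1, and the resistant proficient group for NQO1. The order of NFE2L2 ran from parental proficient through resistant proficient and resistant deficient to parental deficient cells, with no overlap between the libraries of neighbours. KEAP1 ran from resistant deficient through parental deficient and resistant proficient to parental proficient cells, again without overlap. Neighbours overlapped for GCLC (parental deficient and resistant proficient), SLC7A11 (resistant and parental deficient), NQO1 (parental proficient and resistant deficient) and AKR1C1 (parental proficient and parental deficient). On a scale of CPM per kilobase of exon, on which different genes can be compared, TXNRD1 led with group means of 94.9 to 254, and NFE2L2 (41.3 to 78.9) and NQO1 (47.0 to 56.3) came next. By group mean NQO1 stood above NFE2L2 in all groups but the parental proficient one. In resistant proficient cells these means were close (56.3 for NQO1 and 55.7 for NFE2L2) and the libraries of the genes overlapped. GCLM (8.73 to 24.4) stood above its partner GCLC (5.07 to 8.70) in each group, and AKR1C1 was lowest at 0.0102 to 0.0797.

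A wider set of 96 genes of the pathway, in 7 lists, held 90 that could be tested. In deficient cells 30 rose and 25 fell with resistance, and in proficient cells 32 rose and 32 fell, with medians of -0.03 in deficient and -0.04 in proficient cells. Over all genes tested, 28.9% rose and 27.0% fell in deficient cells, and 25.9% rose and 27.8% fell in proficient cells. Of the 12 regulators and partners of NRF2, 4 rose and 1 fell in deficient cells, and 4 rose and 4 fell in proficient cells. SQSTM1 encodes p62, which binds KEAP1 and draws it into autophagy. It averaged 340 ± 43.7 CPM in resistant and 212 ± 6.48 CPM in parental deficient cells (log2 fold change 0.68 ± 0.10, edgeR BH-adjusted p = 0.000229, or 0.30 with the GC trend removed). In proficient cells it averaged 77.3 ± 9.14 CPM in resistant and 188 ± 17.2 CPM in parental libraries (-1.28 ± 0.11, edgeR BH-adjusted p = 2.09e-06). MAFF, a small MAF partner of NRF2, fell in proficient cells (-2.30 ± 0.15, edgeR BH-adjusted p = 3.30e-07).

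Of 20 tested genes of glutathione synthesis and use, 8 rose and 6 fell in deficient cells, and 8 rose and 7 fell in proficient cells. The microsomal glutathione transferase gene MGST1 averaged 84.6 ± 6.18 CPM in resistant and 373 ± 3.46 CPM in parental deficient cells (log2 fold change -2.14 ± 0.07, edgeR BH-adjusted p = 7.59e-09). Its change in proficient cells was -0.19 ± 0.07 (edgeR BH-adjusted p = 0.0338). GSTM3, another glutathione transferase gene, changed in deficient cells by -1.34 ± 0.10 (edgeR BH-adjusted p = 1.75e-06). Of 18 genes of the thioredoxin and peroxiredoxin system, 4 rose and 4 fell in deficient cells, and 6 rose and 5 fell in proficient cells. TXNRD2, the mitochondrial relative of TXNRD1, rose in deficient cells by 1.43 ± 0.18 (edgeR BH-adjusted p = 7.51e-05, or 0.63 with the GC trend removed), and PRDX2, a cytosolic peroxiredoxin gene, by 0.86 ± 0.12 (edgeR BH-adjusted p = 0.000123, or 0.44). In proficient cells the thioredoxin-binding gene TXNIP fell (-1.15 ± 0.07, edgeR BH-adjusted p = 1.39e-07), and the sestrin gene SESN3 rose by 1.56 ± 0.10 (edgeR BH-adjusted p = 3.30e-07). TXNIP fell in deficient cells too (-0.46 ± 0.07, edgeR BH-adjusted p = 0.000193).

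Of 8 genes of NADPH supply, 2 rose and 4 fell in deficient cells, and 2 rose and 5 fell in proficient cells, with medians of -0.19 and -0.50. MTHFD2, a mitochondrial folate enzyme gene, averaged 169 ± 2.15 CPM in resistant and 598 ± 18.1 CPM in parental proficient cells (log2 fold change -1.83 ± 0.06, edgeR BH-adjusted p = 4.03e-09). It fell in deficient cells too (-0.45 ± 0.06, edgeR BH-adjusted p = 0.000112). ME1, the cytosolic malic enzyme gene, fell in deficient cells (-0.89 ± 0.08, edgeR BH-adjusted p = 6.84e-06), or -0.55 with the GC trend removed. ME1 fell in proficient cells as well (-1.06 ± 0.08, edgeR BH-adjusted p = 1.06e-06).

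Of 17 tested genes listed under quinone and carbonyl detoxification, 5 rose and 7 fell in deficient cells, and 4 rose and 7 fell in proficient cells. The list also held genes of other functions, TRIM16L and ABHD4 among them. CYP4F11, a cytochrome P450 gene, averaged 1.002 ± 0.594 CPM in resistant and 18.4 ± 0.419 CPM in parental proficient cells (log2 fold change -4.15 ± 0.26, edgeR BH-adjusted p = 2.56e-07). TRIM16L fell both in proficient cells (-1.99 ± 0.13, edgeR BH-adjusted p = 2.56e-07) and in deficient cells (-1.17 ± 0.12, edgeR BH-adjusted p = 2.12e-05). Of the 10 genes listed under haem and iron handling, 5 rose and 2 fell in deficient cells, and 6 rose and 2 fell in proficient cells. The list also held SLC7A5, an amino acid transporter gene. It was among those that rose in deficient cells (log2 fold change 0.94) and those that fell in proficient cells (-1.34). FTL, the ferritin light chain gene, averaged 337 ± 5.91 CPM in resistant and 792 ± 11.9 CPM in parental deficient cells (-1.23 ± 0.10, edgeR BH-adjusted p = 3.80e-06). It fell in proficient cells too (-1.08 ± 0.10, edgeR BH-adjusted p = 6.36e-06). The iron exporter gene SLC40A1 rose in proficient cells (1.37 ± 0.19, edgeR BH-adjusted p = 9.17e-05). Among 5 tested genes of superoxide and peroxide removal, SOD2, mitochondrial superoxide dismutase, fell in deficient cells (-0.97 ± 0.07, edgeR BH-adjusted p = 1.84e-06). SOD2 fell in proficient cells too (-0.57 ± 0.07, edgeR BH-adjusted p = 5.45e-05). CAT, catalase, rose in proficient cells (0.88 ± 0.12, edgeR BH-adjusted p = 9.56e-05) and was not called in deficient cells (0.22 ± 0.12, edgeR BH-adjusted p = 0.14).

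**Figure D4:**
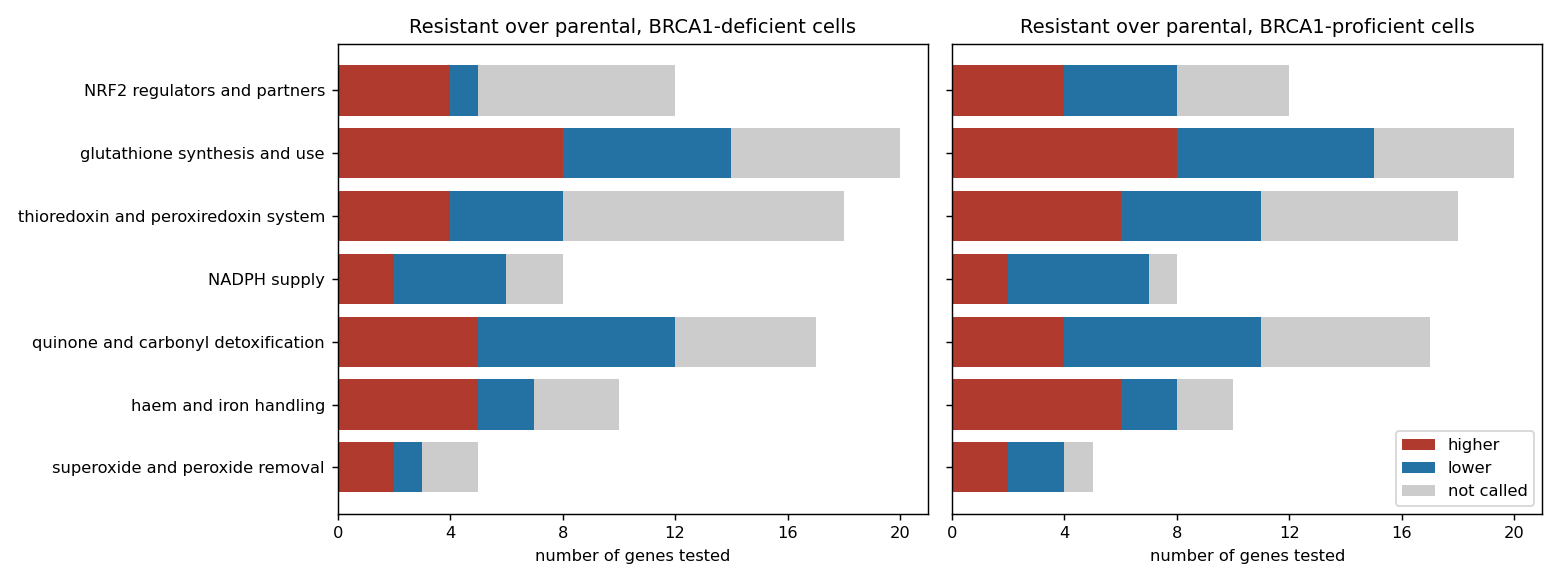
Number of tested genes in each of the 7 wider lists (horizontal axis) that were called higher, called lower or not called in resistant over parental cells of each background. Every list holds calls in both directions, and the glutathione list, for example, holds 8 higher and 6 lower genes in deficient cells.

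The genes most alike in pattern were sought among 10594 tested protein-coding genes with a mean of at least 5 CPM. Pearson's r of log2 CPM was taken over the 8 libraries. These are 4 pairs of replicates, so that high values are easily reached and are given as a description. NFE2L2 was closest to CDK13 (0.9965) and TMEM168 (0.9964), GCLM to CLIP1 (0.9991) and GALNT3 (0.9986), and SLC7A11 to DNM3 (0.9972) and PKP4 (0.9950). KEAP1 was closest to RPL35 (0.9988) and ATOX1 (0.9986), and 1048 genes exceeded 0.95 with it, against 118 with SLC7A11 and 25 with NQO1.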

How the data were processed

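RNA-seq counts of 8 libraries in 4 groups of 2 were analysed. The deposited values are whole-number counts of reads per gene symbol, without normalisation. Per the submitters' processing notes, the tools listed are DESeq2 1.24.0, featureCounts, Subread 2.0.1 and Trimmomatic 0.39 and the build is GRCh37. Not given in the sources used here are the aligner, annotation, strand setting and handling of reads with several matches. Groups came from sample titles.

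Counts were tested with edgeR 4.0.16 in R 4.3.3 (quasi-likelihood, TMM, filterByExpr, 8 libraries in 1 fit, 4 residual degrees of freedom), with p-values adjusted over all genes tested. The SE is the log2 fold change over the square root of F. CPM use TMM-scaled totals. Exon lengths and GC content (longest basic transcript) came from GENCODE 29, and promoters from RefSeq on GRCh38.p14, matched by symbol. Replicate libraries differed beyond sampling noise (chi-square per degree of freedom 4.21 to 22.5). The steps were tested on simulated data. The members, lists and tests were chosen with earlier results of these data known. All members were named, with genes of the wider lists taken by size of change among called genes of at least 5 CPM without overlap, and the most alike genes by r. Alternatives were RLE factors, library totals, other filters, DESeq2 1.42.0, the replicate block, removal of the GC trend (natural spline, 5 degrees of freedom), 2 groups alone and each library left out. The same alternatives for genes of the wider lists were added after seeing the data.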

Additional observations from a re-analysis of the deposited data

Results flagged for a closer look

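The effect of resistance differed between the backgrounds for 4 of the 10 members by a test of the difference itself (edgeR interaction term, proficient minus deficient), where 25.3% of all genes were called lower and 21.4% higher in that test. SLC7A11 gave -1.58 (edgeR BH-adjusted p = 1.63e-06), with resistant below parental cells in the proficient background and overlapping groups in the deficient one. NFE2L2 gave -0.66 (edgeR BH-adjusted p = 0.000551) and TXNRD1 -0.44 (edgeR BH-adjusted p = 0.00152). These 3 kept their call in each of their 16 alternatives. KEAP1 gave -0.52 (edgeR BH-adjusted p = 0.0365, within 0.00110 to 0.872 over the alternatives), and this call was lost without parental deficient replicate 2 (-0.37), parental proficient replicate 1 (-0.56) or 2 (-0.41), resistant deficient replicate 1 (-0.29) or resistant proficient replicate 2 (-0.32). It was lost as well with RLE factors (-0.50), library totals alone (-0.47) and the filter of 1 CPM (-0.46), and turned to 0.02 with the GC trend removed. With that trend removed 6 members were called lower and 1 higher, as NQO1 (-0.21), GCLC (-0.30), SRXN1 (-0.28) and HMOX1 (1.07) gained a call. Among the wider genes, SQSTM1 gave -1.96 (edgeR BH-adjusted p = 2.08e-06), higher with resistance in deficient and lower in proficient cells.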

How the results depend on the processing

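Of 834 values of the members under the alternatives, 739 kept their direction and side of the threshold, 32 lost the call, 26 gained one and 37 changed sign. Of these 95 changes, 43 came with the GC trend removed, with or without the block, and 34 with a single library left out. With the GC trend removed, the number of members called higher was 4 in deficient and 2 in proficient cells with resistance (1 each as tested), 1 in parental cells (5 as tested, or 2 with the replicate block added) and 1 in resistant cells (3 as tested) for proficient over deficient, where 7 were called lower (4 as tested). Over all genes, the number called higher in deficient resistance was then 5286 (4686 as tested) and in parental cells 4094 (5246 as tested), and the number called lower in resistant cells was 6848 (6082 as tested). For the difference between the resistance effects, 0 members were called higher as tested by edgeR at the adjusted p (GCLM had an unadjusted edgeR p of 0.0285), and DESeq2 called 0. In 6 of the alternatives that kept all 8 libraries, 1 member was called higher. That member was GCLM with RLE factors, library totals alone, no filter and the filter of 1 CPM, and HMOX1 with the GC trend removed, with or without the block.

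Signs turned with the GC trend removed for TXNRD1 with resistance in deficient cells (0.06); in parental proficient over deficient cells for NQO1 (-0.10), GCLM (-0.09), SRXN1 (0.05) and AKR1C1 (-0.16); in resistant proficient over deficient cells for NFE2L2 (-0.19), NQO1 (-0.31), GCLC (-0.20) and GCLM (-0.09); and in the difference of resistance effects for KEAP1 (0.02). With the block added these values were the same, except -0.17 for AKR1C1. SLC7A11 with resistance in deficient cells read 0.00 with the 2 groups alone. The difference of resistance effects of NQO1 turned to 0.01 with library totals alone, 0.01 without a filter and 0.02 with the filter of 1 CPM. The cause was not tested.

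With single libraries left out, signs turned for SLC7A11 in deficient resistance (-0.08 to 0.11), AKR1C1 between parental cells (-0.10 to 0.72) and the difference of resistance effects of NQO1 (-0.09 to 0.07) and GCLC (-0.11 to 0.05), and the number of members called higher ran from 0 to 1 in proficient resistance and 0 to 1 for the difference of effects. The labels do not say that replicate numbers pair the samples, and the deviations of same-numbered libraries correlated at -0.13 to 0.21. With the replicate number as a block, the members called were 1 higher and 6 lower in each resistance comparison, and NQO1 between parental cells lost its call (0.17, adjusted p = 0.0547, within 0.0440 to 0.398).
Values near the floor, as of AKR1C1, are limited by depth.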
